A study of Homo sapiens with 18 samples.

Results

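The BCL2 family holds the proteins that decide whether the outer mitochondrial membrane stays sealed, and 10 of its genes were followed in A549 cells exposed to sodium propionate (SP). The genes were chosen by symbol as a family, with earlier results of these data known. They are the pro-survival genes BCL2, BCL2L1 and MCL1, the effectors BAX and BAK1, and the BH3-only genes BBC3, BMF, BIK, BCL2L11 and PMAIP1. Each of the 10 symbols matched 1 of the 61541 genes listed in the count tables, and all 10 passed the expression filter in both tables, alongside 17377 genes tested at 3 and 24 h and 17775 genes tested at 3 and 12 days.

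A549 is a human lung adenocarcinoma line, labelled here as wild type and as a non-small cell lung cancer line. RNA-seq read counts were available for 18 libraries in 6 groups of 3. One experiment compared SP 3 h and SP 24 h with untreated cells collected at 24 h, and the other compared SP 3 days and SP 12 days with untreated cells collected at 3 days, with SP at 5 mM throughout. SP 3 h therefore has only a 24 h control and SP 12 days only a 3-day control, so SP and time in culture cannot be told apart in those comparisons, and comparisons that share a control are not independent of each other. The study describes the 3 and 24 h libraries as biological replicates. The labels do not say whether the replicates are separate cultures, so the p-values measure the spread between these libraries, which at 3 and 12 days may be technical. Being bulk RNA, the libraries cannot separate fewer cells of one kind from less RNA per cell.

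Apoptosis by the mitochondrial route begins when BAX and BAK1 proteins form pores in the outer mitochondrial membrane and cytochrome c escapes to build the apoptosome with APAF1 and caspase 9. The pro-survival proteins BCL2, BCL-XL (from BCL2L1) and MCL1 hold BAX and BAK1 in check. BH3-only proteins, which carry a short helix called BH3, occupy the groove of the pro-survival proteins or engage the effectors directly, and their transcription is a well-known point of control in epithelial tumours. Much of the family is also governed after transcription, by splicing, phosphorylation and protein turnover, which read counts per gene do not show.

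Of these 10 transcripts, BMF showed the largest difference from control at 3 and 24 h, BIK the largest at 12 days, and BAK1 and BIK were higher than control at each of the 4 times. BMF stood 16.5-fold above control at 3 h and 2.75-fold above it at 3 days, where BIK (3.11-fold) and BMF lay within each other's standard errors, and it was not separated from control at 12 days. BCL2L11 was higher at 3 h and lower at 3 and 12 days. No pro-survival transcript was higher at 3 h, 24 h or 3 days, and BCL2L1 was lower at 3 h and higher at 12 days.

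The sequences just before the transcription starts are shown for the members that were higher than control at 3 h and have an entry in the RefSeq promoter table (GRCh38.p14): BMF, BAK1 and BCL2L11. They put the base composition next to the transcript values. Each run is the 250 bases before a start, 5′ to 3′ on the gene's strand, in lower case with GC boxes in capitals. A GC box is GGGCGG on either strand. BMF has 2 RefSeq starts, of which the upstream one lies at chr15:40108880-40109129 and the downstream one at chr15:40106967-40107216, both on the minus strand. The window of BAK1 is chr6:33580277-33580526 on the minus strand, and that of BCL2L11 is chr2:111120664-111120913 on the plus strand. The last 13 bases of the upstream BMF window and the last 17 of the BAK1 window fall in the first exon of a GENCODE transcript that starts further upstream. The downstream BMF window and the BCL2L11 window lie wholly inside their own genes as annotated by GENCODE, and share no base with an annotated exon.
BMF, upstream start: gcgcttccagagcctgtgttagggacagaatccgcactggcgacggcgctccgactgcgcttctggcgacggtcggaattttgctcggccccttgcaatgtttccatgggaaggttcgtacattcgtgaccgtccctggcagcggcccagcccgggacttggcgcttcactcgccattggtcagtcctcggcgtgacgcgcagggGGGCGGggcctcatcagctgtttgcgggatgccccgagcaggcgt
BMF, downstream start: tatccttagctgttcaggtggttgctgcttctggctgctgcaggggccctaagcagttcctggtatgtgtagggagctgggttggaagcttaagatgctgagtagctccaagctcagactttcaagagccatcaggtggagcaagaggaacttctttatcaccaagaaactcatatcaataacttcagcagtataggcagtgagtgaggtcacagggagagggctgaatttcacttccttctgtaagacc
BAK1: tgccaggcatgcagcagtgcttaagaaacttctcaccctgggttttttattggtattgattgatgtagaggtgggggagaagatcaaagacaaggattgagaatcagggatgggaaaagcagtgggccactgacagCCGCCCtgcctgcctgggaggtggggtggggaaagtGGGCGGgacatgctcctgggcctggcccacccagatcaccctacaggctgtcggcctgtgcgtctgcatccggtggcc
BCL2L11: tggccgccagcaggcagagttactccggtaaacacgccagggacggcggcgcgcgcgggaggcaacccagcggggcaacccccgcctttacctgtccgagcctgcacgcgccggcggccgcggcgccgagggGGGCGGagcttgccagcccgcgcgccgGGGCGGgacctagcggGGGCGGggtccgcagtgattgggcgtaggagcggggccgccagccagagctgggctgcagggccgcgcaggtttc

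The upstream BMF window held 1 GC box, 1 CCAAT box (CCAAT, either strand) and 26 CpG dinucleotides, and its G+C content was 65.2%. The downstream BMF window held none of these motifs and no CpG, at 48.8% G+C. BCL2L11 had 3 GC boxes, 1 CCAAT box and 34 CpG (76.8% G+C), and 6.84% of all RefSeq windows had as many CpG. BAK1 had 2 GC boxes, 1 CCAAT box and only 5 CpG (58% G+C). None of the 4 windows held TATAAA on either strand. Over all 35116 windows of the same length, 42.6% held a GC box, 32.0% CCAAT and 10.7% TATAAA, and the median number of CpG was 11. The members with a higher transcript level at 3 h thus had windows from CpG-poor to CpG-rich. Members not called higher at 3 h covered a similar range, from 4 CpG in BBC3 to 36 in PMAIP1. Their windows differ in exon content, so they are not all alike as promoter windows. Of the 250 bases, GENCODE exons held 99 in BBC3, 60 in BAX, 250 in BCL2 and 0 in PMAIP1. The BCL2L1 windows held 250 and 26 such bases. The motif and CpG counts are letter matches and not measured binding sites, and the read counts do not say which BMF start was used. MCL1 and BIK have no entry in the table.

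Transcript levels were compared between members per length, as TMM-scaled CPM (counts scaled to library size) per kilobase of merged exons. Untreated A549 cells carried mostly BAX, BCL2L1 and MCL1. In the control (24 h) the means were 65.9 for BAX, 50.5 for BCL2L1 and 50.1 CPM per kilobase for MCL1, and the libraries of the latter pair overlapped. BAK1 followed at 11.4 and PMAIP1 at 9.74, with overlapping libraries. BBC3 stood at 3.69, BCL2L11 at 1.87, BIK at 1.30, BCL2 at 0.376 and BMF at 0.156, each separated from its neighbour in every library. In this line the founding member BCL2 was therefore among the least abundant members, and BMF was the least abundant in the control (24 h).

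The order differed in the control (3 days), where BAX (73.3 CPM per kilobase), BCL2L1 (48.1) and MCL1 (39.3) again led and were followed by PMAIP1 (19.2), BBC3 (13.2), BAK1 (8.84), BCL2L11 (3.06), BMF (1.91), BIK (0.865) and BCL2 (0.276). No neighbours in that order overlapped. BMF stood at 1.91 there against 0.156 in the control (24 h), and BBC3 at 13.2 against 3.69 CPM per kilobase. The 2 tables were normalized separately, so the controls were not tested against each other. BAX, BCL2L1 and MCL1 filled the first 3 places in all 6 groups whether merged exons, the longest transcript or the coding length was used, while their order among themselves depended on the length chosen.

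**Figure D1:**
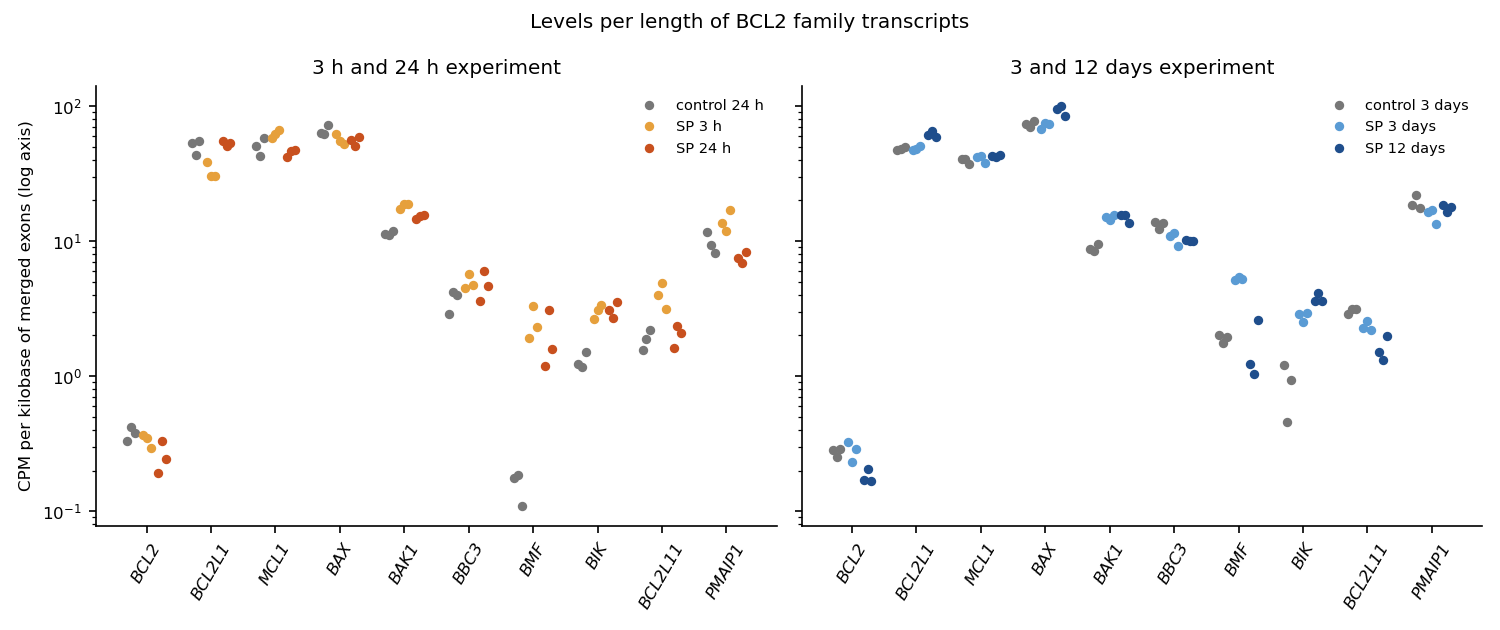
CPM per kilobase of merged exons (log axis) for the 10 members, with the 3 and 24 h experiment and the 3 and 12 day experiment in separate panels; each point is 1 library, coloured by group. BAX, BCL2L1 and MCL1 lie highest in every group, BCL2 lies at the bottom in all groups but the control (24 h), and BMF moves from 0.156 in that control to 2.51 after SP 3 h.

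Summed per role, the 3 pro-survival transcripts reached 86.2 to 113 CPM per kilobase in the control (24 h) libraries and 92.6 to 96.4 after SP 3 h, so their ranges overlapped. The 5 BH3-only transcripts summed to 16.0 to 17.5 in that control, 26.5 to 30.4 after SP 3 h and 17.0 to 21.0 after SP 24 h. The BH3-only sum divided by the pro-survival sum was 0.142 to 0.194 in the control (24 h), 0.275 to 0.316 after SP 3 h and 0.174 to 0.216 after SP 24 h. The 3 h libraries therefore lay above every other library of that experiment, and the 24 h libraries overlapped the control. Among the BH3-only means, PMAIP1 went from 9.74 in the control (24 h) to 14.1 after SP 3 h and BBC3 from 3.69 to 4.97. Neither of these 2 passed the test given below. BCL2L11 went from 1.87 to 3.98, BIK from 1.30 to 3.02 and BMF from 0.156 to 2.51.
In the longer experiment the same quotient was 0.426 to 0.446 in the control (3 days), 0.370 to 0.429 after SP 3 days and 0.305 to 0.352 after SP 12 days, where it lay below every control library. These quotients are descriptions without a test, and transcripts are not protein amounts. The pro-survival sum was 86.8 to 88.3 in the control (3 days) and 102 to 107 after SP 12 days, and the effector sum was 77.8 to 86.4 in that control and 97.4 to 115 CPM per kilobase after SP 12 days.

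Depth was 14187401 to 43765330 counted reads per library. Replicates differed from each other by more than counting error in every pair. The common biological coefficient of variation was 0.199 in the 3 and 24 h experiment and 0.0996 in the 3 and 12 day experiment, so the former has less power. SP 12 days replicate 3 stood apart from its 2 partners: the chi-square per gene was 19.4 and 30.8 against them and 3.10 between them. The third replicates of SP 3 h (33.4 and 70.5, against 10.4 between their partners) and of the control (24 h) (113 and 63.4, against 25.6) differed most from their partners as well. This measure grows with depth. Leaving out either of the latter pair changed no member's call against control at 3 or 24 h, and BMF at 3 h was then 4.10 or 3.81. Epithelial keratins were abundant (KRT8 at 3683 to 8650 CPM over all libraries), while CD3E, PTPRC, DCN and HBB were at or near 0 CPM. CD14 (2.28 to 37.3 CPM) and COL1A1 (5.61 to 88.5 CPM) were detected, and any part of them in the results below was not tested.

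Tests were made in edgeR over all genes of a table, and a gene counts as higher or lower at a Benjamini-Hochberg adjusted p under 0.05. At 3 h, 4 of the 10 members were higher (BMF, BIK, BCL2L11 and BAK1), beside 7.39% of all tested genes, and 1 was lower (BCL2L1), beside 4.11%. At 24 h, 3 were higher (BMF, BIK and BAK1), beside 16.8%, and 0 were lower, beside 12%. The 24 h counts were 3 higher and 0 lower in DESeq2 as well, and 5 members had an unadjusted p under 0.05 in edgeR. At 3 days, 3 were higher (BIK, BMF and BAK1) and 3 lower (BBC3, BCL2L11 and PMAIP1), beside 25.2% and 23.3%. At 12 days, 4 were higher (BIK, BAK1, BCL2L1 and BAX) and 3 lower (BCL2L11, BCL2 and BBC3), beside 26.4% and 23.4%. The share of higher members at 3 h was thus several times that of all genes, and at 3 and 12 days the shares in both directions were close to or modestly above it. Since the family was chosen with earlier results of these data known, these shares are descriptions.

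At a stricter threshold, an adjusted p under 0.0001 together with a fold change of at least 2, only BIK at 12 days passed among the 10 members at the 4 times, beside 9.11% of all genes. The number of members past it was 0 at 3 h (beside 0%), 0 at 24 h (0.685%) and 0 at 3 days (8.44%) in edgeR, where 7, 5 and 6 members had an unadjusted p under 0.05. DESeq2 placed 1, 2 and 2 members past it at those times, beside 2.03%, 5% and 7.32% of the genes it tested.

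**Figure D2:**
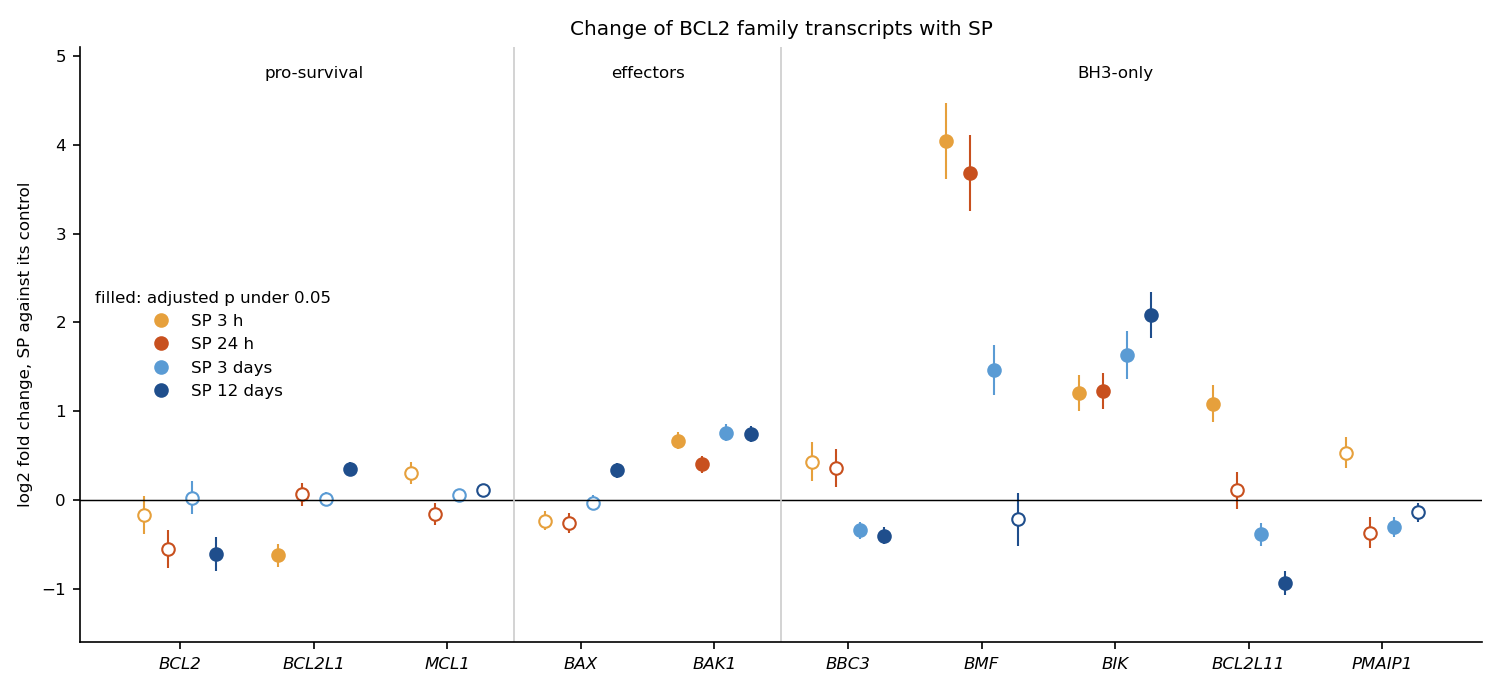
Log2 fold change of each member against its control at the 4 treatment times, with standard errors as bars; filled symbols have an adjusted p under 0.05. BMF lies at 4.04 and 3.68 at 3 and 24 h, 1.46 at 3 days and -0.22 at 12 days, BIK between 1.21 and 2.08 and BAK1 between 0.41 and 0.76 at all times, and the pro-survival genes within 0.62 of 0.

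Among the pro-survival members, BCL2 (ENSG00000171791, chr18:63123346-63320128, minus strand, GRCh38), the gene first found at a lymphoma breakpoint, had few reads. It measured 4.18, 5.28 and 4.76 CPM in the control (24 h), 4.65, 4.37 and 3.70 after SP 3 h, and 2.42, 4.16 and 3.07 after SP 24 h. The log2 fold change was -0.16 ± 0.21 (SE) at 3 h (adjusted p = 0.703, edgeR) and -0.54 ± 0.21 at 24 h (adjusted p = 0.0831), so neither passed. At 24 h all 3 SP libraries nevertheless lay below all 3 controls, and BCL2 passed as lower when SP 24 h replicate 2 was left out (-0.78, adjusted p = 0.0359).
In the longer experiment BCL2 measured 3.58, 3.19 and 3.66 CPM in the control, 4.08, 2.92 and 3.64 after SP 3 days and 2.15, 2.59 and 2.12 after SP 12 days. SP 3 days overlapped the control (0.03 ± 0.19, adjusted p = 0.916), and SP 12 days lay wholly below it. The 12-day fold change was -0.60 ± 0.19 (adjusted p = 0.0158 in edgeR), which missed the threshold in DESeq2 (adjusted p = 0.0574) and without control (3 days) replicate 1 (adjusted p = 0.0527).

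BCL2L1 (ENSG00000171552, chr20:31664452-31723989, minus strand) encodes BCL-XL, the pro-survival protein of many solid tumours, and the shorter BCL-XS by splicing, and gene counts do not tell them apart. Of its merged exons, 41.3% (1735 bases) also lie in the exons of ABALON on the opposite strand, whose reads cannot be separated where counting ignores strand. The control (24 h) libraries read 223, 181 and 232 CPM, those of SP 3 h 160, 128 and 126 and those of SP 24 h 232, 212 and 223. The 3 h libraries did not overlap the control and the 24 h libraries did. The change was -0.62 ± 0.13 at 3 h (adjusted p = 0.0151, edgeR) and 0.07 ± 0.13 at 24 h (adjusted p = 0.712). The 3 h call was lost when only these 6 libraries were fitted (adjusted p = 0.0554) and without SP 3 h replicate 2 (adjusted p = 0.0707).
At the later times BCL2L1 read 197, 201 and 207 CPM in the control, 199, 201 and 212 after SP 3 days and 253, 273 and 248 after SP 12 days. Control and SP 3 days overlapped (0.02 ± 0.07, adjusted p = 0.861), while SP 12 days was separated upwards (0.36 ± 0.07, adjusted p = 0.000907, edgeR). With the trends of counts with GC content and length removed, the 3-day value became -0.18 (adjusted p = 0.0314).

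MCL1 (ENSG00000143384, chr1:150560895-150579738, minus strand) encodes a pro-survival protein with rapid turnover, and 328 bases of its exons are shared with ADAMTSL4 and ADAMTSL4-AS1. It read 313, 265 and 357 CPM in the control (24 h), 360, 384 and 410 after SP 3 h and 260, 287 and 293 after SP 24 h. The 3 h libraries lay just above the controls without passing the test (0.30 ± 0.12, adjusted p = 0.149, edgeR), and the 24 h value was -0.15 ± 0.12 (adjusted p = 0.362). In the control (3 days) it read 253, 250 and 231 CPM, after SP 3 days 260, 265 and 237 and after SP 12 days 263, 262 and 268. Neither later comparison passed (0.05 ± 0.08 and 0.11 ± 0.08, adjusted p = 0.589 and 0.248). MCL1 was the only member that passed in none of the 4 comparisons with control.

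The effectors behaved differently from each other. BAX (ENSG00000087088, chr19:48954815-48961798, plus strand), whose protein is largely cytosolic until activated, read 164, 161 and 186 CPM in the control (24 h), 160, 142 and 134 after SP 3 h and 144, 130 and 153 after SP 24 h. Both SP groups lay below the control range without passing, at -0.23 ± 0.11 (adjusted p = 0.231, edgeR) and -0.26 ± 0.11 (adjusted p = 0.107). The 24 h value became -0.59 with an adjusted p of 0.00171 once the GC and length trends were removed. In the longer experiment BAX read 191, 180 and 199 CPM in the control, 175, 192 and 191 after SP 3 days and 245, 258 and 217 after SP 12 days. It was not separated at 3 days (-0.03 ± 0.08, adjusted p = 0.794; -0.20 and an adjusted p of 0.0425 with those trends removed) and was higher at 12 days (0.34 ± 0.08, adjusted p = 0.0033).

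BAK1 (ENSG00000030110, chr6:33572547-33580293, minus strand), the effector that resides in the outer mitochondrial membrane, was higher at every time. It read 25.1, 24.6 and 26.1 CPM in the control (24 h), 37.8, 41.6 and 41.3 after SP 3 h and 32.1, 34.0 and 34.3 after SP 24 h, with no overlap between the 3 groups. The change was 0.67 ± 0.10 at 3 h (1.59-fold, adjusted p = 0.00303, edgeR) and 0.41 ± 0.10 at 24 h (1.33-fold, adjusted p = 0.0126). The 24 h call was the less firm: it was lost with the GC and length trends removed (0.10, adjusted p = 0.518), with no filter on low counts (adjusted p = 0.0789) and without SP 24 h replicate 2 (adjusted p = 0.0511) or 3 (adjusted p = 0.0559).
The control (3 days) read 19.2, 18.6 and 20.9 CPM, SP 3 days 33.5, 31.4 and 34.4 and SP 12 days 34.1, 34.3 and 30.2. Both SP groups lay far above the control and overlapped each other. The values were 0.76 ± 0.09 at 3 days (1.69-fold, adjusted p = 7.46e-06) and 0.75 ± 0.09 at 12 days (1.68-fold, adjusted p = 7.66e-06), and they held their call under every alternative run. BAK1 shares 91 exonic bases with GGNBP1 and has 2 annotated pseudogenes, BAK1P1 and BAK1P2, and how reads that map to several places were counted is not stated.

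BMF (ENSG00000104081, chr15:40087890-40108892, minus strand) encodes a BH3-only protein that is held at the cytoskeleton through a dynein light chain. It had 18, 19 and 17 reads in the control (24 h) libraries, 148, 554 and 311 after SP 3 h and 161, 749 and 256 after SP 24 h. As CPM these were 0.952, 1.00 and 0.596 in the control, 10.4, 17.9 and 12.7 after SP 3 h and 6.51, 16.7 and 8.63 after SP 24 h. The lowest SP library thus lay several times above the highest control, and SP replicate 2 was the highest at both times. The change was 4.04 ± 0.43 at 3 h (16.5-fold, adjusted p = 0.00103, edgeR) and 3.68 ± 0.43 at 24 h (12.8-fold, adjusted p = 0.000424).
The second control started from a higher level, 11.0, 9.51 and 10.7 CPM. After SP 3 days BMF read 28.1, 29.6 and 28.5 CPM, a narrow group well above it (1.46 ± 0.28, 2.75-fold, adjusted p = 0.0023). After SP 12 days the libraries read 6.69, 5.63 and 14.2 CPM, 2 below the control range and 1 above it. The 12-day value was -0.22 ± 0.30 (adjusted p = 0.58), and it turned on replicate 3, which differed most from its partners: without it BMF was lower than control (-0.79, adjusted p = 1.66e-05), and without replicate 2 the value was 0.02 (adjusted p = 0.956). BMF shares 461 exonic bases with BMF-AS1 on the opposite strand.

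BIK (ENSG00000100290, chr22:43110750-43129712, plus strand), a BH3-only protein of the endoplasmic reticulum, was low in untreated cells and higher at all times. Its libraries read 1.16, 1.11 and 1.44 CPM in the control (24 h), 2.54, 2.92 and 3.18 after SP 3 h and 2.91, 2.55 and 3.37 after SP 24 h. The SP groups overlapped each other and not the control. The change was 1.21 ± 0.20 at 3 h (2.31-fold, adjusted p = 0.00539, edgeR) and 1.23 ± 0.20 at 24 h (2.35-fold, adjusted p = 0.00198).
The control (3 days) had only 24, 7 and 15 BIK reads, or 1.15, 0.438 and 0.885 CPM. SP 3 days read 2.74, 2.37 and 2.81 CPM (45, 39 and 47 reads) and SP 12 days 3.41, 3.94 and 3.45 CPM (54, 79 and 78 reads), all above the control. The second control library lay under the filter's cutoff of 0.587 CPM, which the other 8 libraries passed. The change was 1.64 ± 0.27 at 3 days (3.11-fold, adjusted p = 0.000137) and 2.08 ± 0.26 at 12 days (4.24-fold, adjusted p = 7.53e-06). BIK shares no exonic base with another gene, and it remained past the adjusted p of 0.05 in each alternative of all 4 comparisons, while its place past the stricter threshold at 12 days was lost when only those 6 libraries were fitted and without control (3 days) replicate 3.

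BCL2L11 (ENSG00000153094, chr2:111119378-111168444, plus strand) encodes BIM, a BH3-only protein that binds all pro-survival members and can engage the effectors. It read 10.5, 12.6 and 14.7 CPM in the control (24 h), 26.7, 32.7 and 21.0 after SP 3 h and 11.0, 16.0 and 14.0 after SP 24 h. The 3 h libraries were all above the control (1.09 ± 0.21, 2.12-fold, adjusted p = 0.00993, edgeR) and the 24 h libraries were spread over it (0.11 ± 0.21, adjusted p = 0.702).
The control (3 days) read 19.4, 21.3 and 21.1 CPM, SP 3 days 15.3, 17.1 and 14.9 and SP 12 days 10.1, 8.82 and 13.4. Each step was downward without overlap. BCL2L11 was 1.31-fold lower at 3 days (-0.39 ± 0.13, adjusted p = 0.0253) and 1.90-fold lower at 12 days (-0.93 ± 0.14, adjusted p = 3.64e-05). The 3-day call was lost in 4 of the 9 fits that left out 1 library (highest adjusted p = 0.0903), namely without control replicate 2 or 3 or SP 3 days replicate 1 or 3. BCL2L11 shares 727 exonic bases with MIR4435-2HG on the opposite strand.

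BBC3 (ENSG00000105327, chr19:47220822-47232766, minus strand) encodes PUMA, a BH3-only target of p53, and A549 cells carry intact p53. It read 9.10, 13.4 and 12.8 CPM in the control (24 h), 14.2, 18.3 and 15.0 after SP 3 h and 11.4, 19.0 and 14.8 after SP 24 h. The values of 0.43 ± 0.22 (adjusted p = 0.256, edgeR) and 0.36 ± 0.22 (adjusted p = 0.233) did not pass, and the latter turned to -0.43 with the GC and length trends removed. In the longer experiment it read 44.1, 39.1 and 43.2 CPM in the control, 34.6, 36.3 and 29.1 after SP 3 days and 32.1, 31.7 and 32.0 after SP 12 days. Both SP groups lay below the control, by 1.26-fold at 3 days (-0.34 ± 0.10, adjusted p = 0.008) and 1.32-fold at 12 days (-0.40 ± 0.09, adjusted p = 0.00245). BBC3 shares 80 exonic bases with MIR3190 and MIR3191.

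PMAIP1 (ENSG00000141682, chr18:59899996-59904305, plus strand) encodes NOXA, which binds MCL1 in preference to BCL-XL. It read 25.5, 20.4 and 17.9 CPM in the control (24 h), 29.5, 25.9 and 37.0 after SP 3 h and 16.4, 15.0 and 18.1 after SP 24 h. The 3 h value of 0.53 ± 0.17 missed the threshold (adjusted p = 0.0835, edgeR) and passed it with the GC and length trends removed (0.65, adjusted p = 0.0275) or without control (24 h) replicate 1 (0.66, adjusted p = 0.0456). The 24 h value was -0.36 ± 0.17 (adjusted p = 0.146), and 0.20 with those trends removed.
The control (3 days) read 40.4, 47.6 and 38.1 CPM, SP 3 days 35.7, 37.2 and 29.2 and SP 12 days 40.3, 35.6 and 38.8. PMAIP1 was lower at 3 days (-0.30 ± 0.11, adjusted p = 0.0318) and overlapped the control at 12 days (-0.14 ± 0.11, adjusted p = 0.321). The 3-day call was lost in DESeq2 (adjusted p = 0.0607), with the GC and length trends removed (-0.03, adjusted p = 0.766) and without control replicate 1 or 2 or SP 3 days replicate 1 or 3 (highest adjusted p = 0.163).

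Levels were also compared directly between the SP groups of an experiment. The control was not part of the difference, but its libraries stayed in the fit and so entered its filter, scaling and estimate of spread. Duration of SP and time in culture cannot be told apart in these comparisons, so a difference in level is not a difference in SP effect. From 3 to 24 h, 1 member was higher, beside 11.7% of all genes, and 3 were lower, beside 8.4%. BCL2L1 was 1.61-fold higher at 24 h than at 3 h (0.69 ± 0.13, adjusted p = 0.00688, edgeR). BCL2L11 was 1.96-fold lower (-0.97 ± 0.21, adjusted p = 0.0113), PMAIP1 1.86-fold lower (-0.90 ± 0.18, adjusted p = 0.00788) and MCL1 1.37-fold lower (-0.46 ± 0.12, adjusted p = 0.0272). BCL2L1 was thus lower, and BCL2L11 and PMAIP1 higher, at 3 h than at 24 h. The PMAIP1 call was lost with the GC and length trends removed (-0.45, adjusted p = 0.0824), and the MCL1 call without any 1 of the 6 SP libraries (highest adjusted p = 0.094). BMF (-0.36 ± 0.34, adjusted p = 0.482), BIK (0.02 ± 0.18, adjusted p = 0.945) and BAK1 (-0.27 ± 0.10, adjusted p = 0.0804) were not shown to differ.

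From 3 to 12 days, 2 members were higher, beside 4.46% of all genes, and 2 were lower, beside 3.65%. BMF was 3.20-fold lower at 12 days (-1.68 ± 0.28, adjusted p = 0.0088, edgeR), and all 3 libraries at 12 days lay below all 3 at 3 days. Without SP 12 days replicate 3 its value was -2.24. BCL2L11 was 1.46-fold lower (-0.54 ± 0.14, adjusted p = 0.0246), BCL2L1 1.26-fold higher (0.34 ± 0.07, adjusted p = 0.0108) and BAX 1.29-fold higher (0.37 ± 0.08, adjusted p = 0.0133). Of these 4 calls only that of BMF was kept when each library was left out in turn. BCL2L11 lost its call without any 1 of the SP libraries other than SP 12 days replicate 3 (highest adjusted p = 0.112), and also when only these 6 libraries were fitted (adjusted p = 0.0759). BCL2L1 and BAX lost theirs in 4 fits each (highest adjusted p = 0.0687 and 0.088). BCL2 (-0.63 ± 0.19, adjusted p = 0.0565), BIK (0.45 ± 0.22, adjusted p = 0.244) and BAK1 (-0.01 ± 0.09, adjusted p = 0.957) did not pass.

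The rest of the apoptosis machinery was described from 5 lists of 42 genes, of which 39 were tested and BCL2L10, BCL2L14 and FASLG were too low. At 3 h, 3 of the 39 were higher and 1 lower, beside 7.39% and 4.11% of all tested genes, so the counts were near the background. APAF1, the scaffold of the apoptosome, rose from 37.4 ± 5.6 to 67.1 ± 6.7 CPM (SD, n = 3) and CASP9, the caspase it activates, from 12.8 ± 1.4 to 19.1 ± 1.8. Their log2 changes were 0.84 ± 0.14 (adjusted p = 0.00491, edgeR) and 0.58 ± 0.13 (adjusted p = 0.0237). Among death receptor genes, TNFRSF10B, a receptor for the ligand TRAIL, was higher (0.60 ± 0.14, adjusted p = 0.0228), and FADD, the adaptor of these receptors, was lower (-0.51 ± 0.14, adjusted p = 0.0404). No other BCL2 family gene of the list, no inhibitor of apoptosis and no mitochondrial partner passed at 3 h in edgeR. The median over all 39 was 0.01 beside 0.00 over all tested genes, whereas the median of the 10 members was 0.48. When only the 6 libraries compared were fitted, 1 of the 39 passed.

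At 24 h, 2 of the 39 were higher and 8 lower, beside 16.8% and 12% of all tested genes, with a median of -0.17 beside -0.01 over all tested genes. Genes lower at this time included CFLAR, which encodes the caspase 8 inhibitor cFLIP (-1.04 ± 0.17, adjusted p = 0.00234, edgeR), the mitochondrial channel VDAC3 (-0.78 ± 0.14, adjusted p = 0.00286) and BCL2L2, the pro-survival gene for BCL-W (-0.68 ± 0.12, adjusted p = 0.00284). BID, whose product links death receptors to mitochondria, was lower as well (-0.59 ± 0.13, adjusted p = 0.00837). BCL2L15 was higher (0.94 ± 0.27, adjusted p = 0.0265). The other gene counted as higher, TNFSF10, which encodes TRAIL, read 0.663 ± 0.252 CPM against 0.240 ± 0.204 and reached the filter on low counts only through SP 24 h, so its call carries no weight. Genes on both the pro-survival and the pro-apoptotic side were therefore among those lower. Without SP 24 h replicate 2, 5 of the 39 passed. From 3 to 24 h, 1 gene of the 39 was higher and 6 were lower, beside 11.7% and 8.4% of all tested genes, APAF1 among them (-1.19 ± 0.14, adjusted p = 0.000969).

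At 3 days, 9 of the 39 were higher and 9 lower, near the 25.2% and 23.3% of all tested genes, with a median of -0.12 beside -0.02 over all tested genes. HRK, another BH3-only gene, read 2.48 ± 0.20 CPM against 0.866 ± 0.130 in the control (1.52 ± 0.24, adjusted p = 6.58e-05, edgeR), and BOK, an effector-like relative of BAX, read 24.0 ± 1.1 against 12.0 ± 1.1 CPM (1.01 ± 0.11, adjusted p = 1.39e-06). BCL2L2 fell to 23.5 ± 2.3 from 49.1 ± 1.8 CPM (-1.07 ± 0.09, adjusted p = 1.49e-07). In the death receptor list TNFSF10 was higher (1.85 ± 0.41, adjusted p = 0.00402) and CFLAR lower (-0.91 ± 0.11, adjusted p = 3.84e-06). HTRA2, a mitochondrial protease that antagonizes inhibitors of apoptosis, was higher too (0.69 ± 0.10, adjusted p = 5.84e-05).

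At 12 days, 15 of the 39 were higher and 6 lower, beside 26.4% and 23.4% of all tested genes, with a median of 0.10 beside 0.00 over all tested genes. HRK (1.50 ± 0.23, adjusted p = 6.62e-05, edgeR) and BOK (1.08 ± 0.11, adjusted p = 5.39e-07) were again higher and BCL2L2 again lower (-0.88 ± 0.09, adjusted p = 9.56e-07), against the same control libraries. BCL2A1, a pro-survival gene, read 1.54 ± 0.94 CPM against 0.158 ± 0.145 in the control and reached the filter on low counts only through SP 12 days, so its call among the 15 carries no weight. BIRC3, an inhibitor of apoptosis, was higher (1.36 ± 0.26, adjusted p = 0.00204). TNFSF10 was 1.72 ± 0.41 above control (adjusted p = 0.00572), and 0.99 without SP 12 days replicate 3. From 3 to 12 days, 6 of the 39 were higher and 0 lower in edgeR, beside 4.46% and 3.65% of all tested genes, and DESeq2 gave the same counts. FAS, a death receptor, was among the higher genes (1.17 ± 0.18, adjusted p = 0.00128). Without replicate 3 the counts were 14 higher and 2 lower.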

How the data were processed

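RNA-seq of A549 cells was deposited as 2 tables of read counts per Ensembl gene, with 9 libraries each. The authors made these counts from NEBNext Ultra libraries, aligned with STAR 2.7.9a to GRCh38 and counted with featureCounts per the labels, without normalization. Strandedness and the treatment of multi-mapping reads are not given in the sources used here. All 18 columns matched a sample by name, and 0 were left unmapped.

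The tests used edgeR 4.0.16 under R 4.3.3: filterByExpr (minimum count 10), TMM factors (0.957 to 1.037), and 1 robust quasi-likelihood model of all 9 libraries per table. Benjamini-Hochberg adjustment covered all genes tested in a comparison. A gene passed at an adjusted p under 0.05, and a stricter threshold (0.0001, with at least a 2-fold change) was taken from the study's methods, which used DESeq2. Standard errors were derived from the F statistics. The procedure was tested on simulated data. Gene symbols, coordinates and lengths came from GENCODE v44 (GRCh38), which held 61369 of the 61541 identifiers, and promoter windows from RefSeq (GRCh38.p14).

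The 10 members, the pathway lists and the tests were chosen with earlier results of these data known. All members were described in every group, and of each list up to 4 of the genes with the largest change past the test, of which some are not reported here. A further rule, naming genes with a pattern like that of a member past the stricter threshold in at least 2 comparisons with control, named none, since no member met it. Depth was 14187401 to 43765330 reads per library.

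Alternatives were DESeq2 1.42.0, RLE factors, no filter on low counts, fits of only the 2 groups compared, a replicate block, removal of trends with GC content and length, and leaving out each library. Replicate numbers were checked by correlating residuals of libraries of 2 groups. Between SP 24 h and control (24 h), same-numbered libraries correlated at 0.170 to 0.504, which met the criterion for pairing (all over 0.1), although the labels give no source of pairing. The values given are from the fit without the block, and the closing section gives its effect. For SP 3 h the same-numbered correlations with that control were -0.592 to -0.028, and in the other experiment -0.010 to 0.162. Differently numbered libraries correlated at -0.546 to 0.175 between SP 24 h and control (24 h). Between SP 3 h and control (24 h) they correlated at -0.573 to 0.576. Libraries thus also shared patterns across replicate numbers, which the block does not model and whose source was not tested.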

Additional observations from a re-analysis of the deposited data

Results flagged for a closer look

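Levels of 6 members differed between the SP groups of an experiment by the direct test in edgeR, where duration of SP and time in culture cannot be told apart. From SP 3 h to SP 24 h the log2 difference was 0.69 for BCL2L1, -0.46 for MCL1, -0.97 for BCL2L11 and -0.90 for PMAIP1. From SP 3 days to SP 12 days it was 0.34 for BCL2L1, 0.37 for BAX, -1.68 for BMF and -0.54 for BCL2L11. BCL2L1 and BCL2L11 were thus named in both experiments, BCL2L1 higher and BCL2L11 lower at the later time. Groups of 3 libraries were too small for a search for outlying libraries by gap and range.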

How the results depend on the processing

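The number of members past an adjusted p of 0.05 stayed within 1.5 times the reported count in all 4 comparisons with control and between 3 and 24 h, under every alternative. Leaving out 1 library gave 4 to 6 members at 3 h, 2 to 3 at 24 h, 4 to 6 at 3 days, 6 to 8 at 12 days, 3 to 4 between 3 and 24 h and 1 to 5 between 3 and 12 days, where 1 or 2 were left without any 1 SP library other than SP 12 days replicate 3. Past the stricter threshold, the count was 1 at 3 h with DESeq2 or no filter, 2 at 24 h with DESeq2, 2 at 3 days with DESeq2, no filter or only the 2 groups, and 0 at 12 days with only the 2 groups. Leaving out a library gave 0 to 2 at 3 days (2 without SP 12 days replicate 2 or 3) and 0 to 2 at 12 days (0 without control replicate 3, 2 without SP 12 days replicate 3). With the replicate block the counts of members were 5, 3, 6, 7, 4 and 4, as reported, and no call of a member changed; the genes past the stricter threshold at 24 h went from 119 to 2. The cause of these changes was not tested.

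With GC content and length trends removed, the sign turned at 24 h for BCL2L1 (-0.28), BBC3 (-0.43) and PMAIP1 (0.20) and at 3 days for BCL2L1 (-0.18). Leaving out a library turned values near 0: at 24 h BCL2L1 (-0.043 to 0.132) and BCL2L11 (-0.031 to 0.241), at 3 days BCL2 (-0.090 to 0.141), BCL2L1 (-0.016 to 0.037) and BAX (-0.074 to 0.0075), and at 12 days BMF (-0.787 to 0.018). The BH3-only to pro-survival quotient of the control (3 days) had a median of 0.437, and 0.450 with the longest transcript as length. The pathway counts, whose alternatives were added after seeing the data, were 4 at 3 h (1 with only the 2 groups, 1 to 4 leaving out a library), 10 at 24 h (5 to 15), 18 at 3 days (14 to 25), 21 at 12 days (16 to 23), 7 between 3 and 24 h (12 with GC and length trends removed, 3 to 8) and 6 between 3 and 12 days (3 with only the 2 groups, 2 to 16). Low counts limit BMF in the control (24 h) and BIK and BCL2 throughout, and the wider spread at 3 and 24 h limits small changes there.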
